A study of Arabidopsis thaliana with 6 samples.

Results

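The genes described here encode enzymes and proteins that remodel the plant cell wall: the xyloglucan endotransglucosylase/hydrolase genes XTH18 (AT4G30280), XTH19 (AT4G30290) and XTH23 (AT4G25810), the expansin genes EXPA4 (AT2G39700) and EXPA8 (AT2G40610), and AT2G47550, a gene of the pectin methylesterase family. They are 6 genes, set beside the 13356 genes to which the array annotation gave a value, and 5 of them are among these (XTH23 was identified by its published differences). XTH19, XTH23 and AT2G47550 were selected on their EST minus mock differences, since they stand in the published list of genes changed on these same arrays. Entry to that list required a change of at least 2-fold, in the same direction, at no fewer than 2 of the 3 time points. XTH18, EXPA4 and EXPA8 are not on that list. They were chosen with the results of these arrays known, and which values led to the choice is not recorded. The differences between EST and mock are therefore given as a description of all 6 genes, without a test.

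The walls of growing plant cells are cellulose microfibrils bound by xyloglucan and embedded in pectin. XTH enzymes cut and rejoin xyloglucan chains, expansins loosen the contacts between cellulose and xyloglucan without cutting either polymer, and pectin methylesterases remove methyl groups from pectin, which alters how stiff the pectin gel is. All 3 families are large in Arabidopsis, and their genes are known for differing in the organ in which they are expressed and for responding to hormones, touch and other stimuli.

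RNA came from GRF9-IOE plants, which carry GROWTH-REGULATING FACTOR9 (GRF9), a transcription factor of a plant-specific family, under a promoter switched on by estradiol (EST). EST plants received 10 µM EST and the control plants, which carry the same transgene, received ethanol as mock treatment. Both treatments were applied to whole seedlings for 3 h and for 4 h, labelled as 2 weeks old and kept on MS plates in long days. They were also applied for 6 h to detached mature leaves, labelled as 40 days old and taken from plants on soil in equal day and night. A younger age is given for the leaf plants in the published text. Each of the 6 conditions was measured on 1 Affymetrix ATH1 array. Plants without the transgene treated with EST were not analysed here, so an effect of EST itself cannot be told apart from one of GRF9, and GRF9 has no probe set by which its induction could be checked on these arrays.

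The deposited values are log2 signals normalized with GCRMA, so that a difference of 1 is a 2-fold difference. Between 24.9% and 26.7% of the probe sets of an array lay at its lowest signal, 2.15, and a gene at this level can show an increase but no decrease. Signals correlated at 0.995 to 0.997 across probe sets among the 4 seedling arrays, at 0.993 between both leaf arrays, and at 0.910 to 0.926 between leaves and seedlings. Of the root markers, 3 of 8 were measured: PYK10, a root β-glucosidase, had signals of 2.17 on both leaf arrays and 12.06 to 12.27 on the seedling arrays, while the root hair expansins EXPA7 and EXPA18 lay near the lowest signal on all arrays. Of the leaf photosynthesis markers, 1 of 5 was measured: RCA, which encodes rubisco activase, lay between 13.44 and 14.13 on all arrays. The difference between the mock seedlings of 4 h and 3 h, which received no EST, had an SD of 0.249 across genes, with 56 genes up and 39 down by 2-fold or more, which is 0.711% of the 13356. The SD includes the 5382 genes within 1 log2 unit of the lowest signal on all arrays, which cannot differ by 2-fold. An SD of the genes above that level was not computed.

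AT2G47550, XTH23 and XTH19 had higher signals after EST at all 3 time points, XTH18 differed by 2-fold only in seedlings at 3 h, EXPA4 only in leaves, and EXPA8 at none. At least 2-fold higher after EST were 4 of the 6 genes at 3 h (AT2G47550, XTH23, XTH19 and XTH18), 3 at 4 h (AT2G47550, XTH19 and XTH23) and 2 at 6 h in leaves (AT2G47550 and EXPA4). Of these, XTH18 at 3 h and XTH23 at 4 h lay so near the threshold that they fell below it with quantile normalization (0.98 and 0.99 on the log2 scale) and with each array centred on its median (0.94 and 0.98). Over the 13356 genes, 151 (1.13%) were at least 2-fold higher at 3 h, 82 (0.614%) at 4 h and 136 (1.02%) at 6 h. None of the 6 genes was at least 2-fold lower, which 52 (0.389%), 24 (0.18%) and 152 (1.14%) of the 13356 genes were at 3 h, 4 h and 6 h. Since 3 of the 6 genes were selected on this contrast, nothing is read from their share beside that of all genes. With 1 array in each condition, no neighbouring pair in any of the orders below can be separated by a test.

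**Figure D1:**
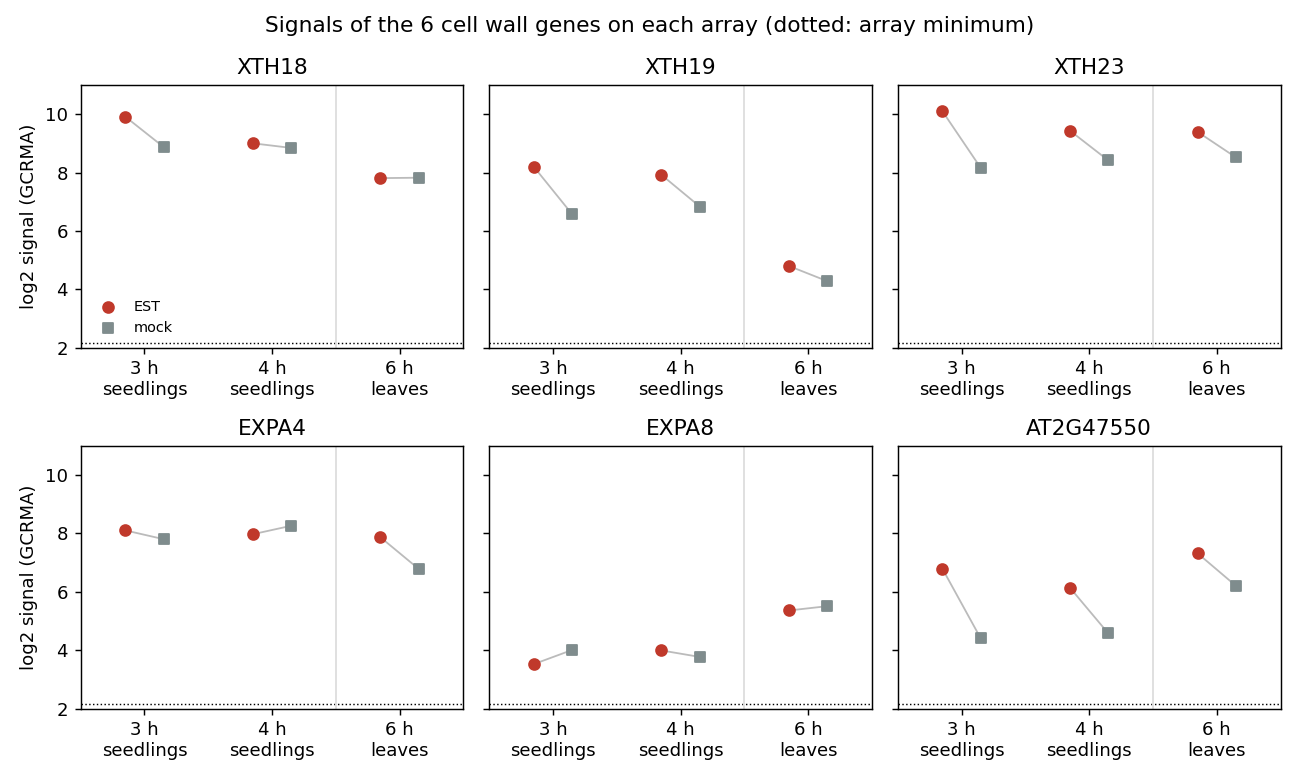
Log2 signal (y axis, GCRMA) of each of the 6 genes on each of the 6 arrays, by time point and tissue (x axis), with a circle for the EST array, a square for the mock array and a dotted line at the lowest signal of the arrays. XTH18 and XTH19 were lower on both leaf arrays than on every seedling array and EXPA8 was higher, while XTH23, XTH19 and AT2G47550 lay higher with EST than with mock at each time point.

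Among the XTH genes, XTH23, also known as XTR6, had log2 signals of 10.10 with EST against 8.16 with mock in seedlings at 3 h, 9.43 with EST against 8.42 with mock in seedlings at 4 h, and 9.39 with EST against 8.52 with mock in leaves at 6 h. All 3 EST arrays lay above all 3 mock arrays. Its signal was 3.83-fold, 2.02-fold and 1.83-fold higher with EST at 3 h, 4 h and 6 h, log2 differences of 1.94, 1.02 and 0.87. At 3 h, 19 of the 13356 annotated genes had a larger difference, and at 6 h 199 had. The value at 4 h is the one by which XTH23 only just met the 2-fold rule of that list a second time, and the value at 6 h lay just outside it.

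XTH19, whose product cuts and rejoins xyloglucan, had signals of 8.20 with EST against 6.58 with mock at 3 h, 7.92 with EST against 6.84 with mock at 4 h, and 4.80 with EST against 4.28 with mock in leaves. Its levels were ordered first by tissue, with all seedling arrays above both leaf arrays, and then by treatment, with EST above mock within each tissue. The differences were 1.62, 1.09 and 0.52, or 3.08-fold, 2.12-fold and 1.43-fold. The difference at 6 h was exceeded by 739 of the other 13355 genes, that at 3 h by 42 and that at 4 h by 62.

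XTH18, which lies next to XTH19 on chromosome 4, had signals of 9.91 with EST against 8.88 with mock at 3 h, 9.00 with EST against 8.84 with mock at 4 h, and 7.81 with EST against 7.82 with mock in leaves. The EST array of 3 h stood apart, and the other 3 seedling arrays lay within a narrow band. Its differences were 1.04, 0.16 and −0.01, so that it was 2.05-fold higher with EST at 3 h, just inside the 2-fold threshold. Its mock signals at 4 h and 3 h differed by −0.03, and the EST signal at 4 h was lower than that at 3 h by a difference of −0.91. XTH18 and XTH19 are close paralogs, and whether their probe sets tell the transcripts apart was not tested.

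The α-expansin gene EXPA4 had signals of 8.10 with EST against 7.80 with mock at 3 h, 7.97 with EST against 8.26 with mock at 4 h, and 7.86 with EST against 6.78 with mock in leaves. The mock leaves were low, and the other 5 arrays lay close together. In leaves the difference was 1.08, or 2.12-fold, and 99 of the other 13355 genes had a larger one. In seedlings the differences were 0.30 at 3 h and −0.29 at 4 h, both smaller in size than the 0.46 by which mock seedlings of 4 h exceeded those of 3 h. With the mock arrays exchanged between 3 h and 4 h, both seedling differences changed sign, to −0.16 and 0.17.

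EXPA8, the other α-expansin gene, had signals of 3.52 with EST against 4.01 with mock at 3 h, 3.99 with EST against 3.77 with mock at 4 h, and 5.36 with EST against 5.51 with mock in leaves. Its seedling signals lay only 1.37 to 1.86 above the lowest signal of the arrays, which limits how far they could fall. No EST array stood apart from the mock arrays of the same tissue by as much as 2-fold. The differences were −0.48, 0.22 and −0.15, beside a difference of −0.24 between the mock seedlings of 4 h and 3 h. With the mock arrays exchanged, the seedling differences were −0.25 at 3 h and −0.02 at 4 h, the second of which changed sign.

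AT2G47550, a pectin methylesterase family gene, had signals of 6.79 with EST against 4.41 with mock at 3 h, 6.14 with EST against 4.58 with mock at 4 h, and 7.32 with EST against 6.20 with mock in leaves. Mock seedlings were low, EST seedlings came near or passed mock leaves, and EST leaves were highest. It alone of the 6 genes passed 2-fold at every time point, being higher by 2.38, 1.56 and 1.11 on the log2 scale, or 5.21-fold, 2.95-fold and 2.16-fold. Of the other 13355 genes, 8 had a larger difference at 3 h, 20 at 4 h and 85 at 6 h.

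Between the seedling time points, the EST signal at 4 h minus that at 3 h was −0.91 for XTH18, −0.67 for XTH23, −0.65 for AT2G47550, −0.27 for XTH19 and −0.13 for EXPA4, and 0.47 for EXPA8. The mock signal at 4 h minus that at 3 h was between −0.24 for EXPA8 and 0.46 for EXPA4. For XTH19, XTH23 and AT2G47550 a part of the smaller difference at 4 h thus came from a higher mock signal, by 0.26, 0.25 and 0.17. With the mock arrays exchanged, the differences of XTH19 were 1.36 at 3 h and 1.35 at 4 h, those of XTH23 were 1.68 and 1.27, and those of AT2G47550 were 2.21 and 1.73.

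**Figure D2:**
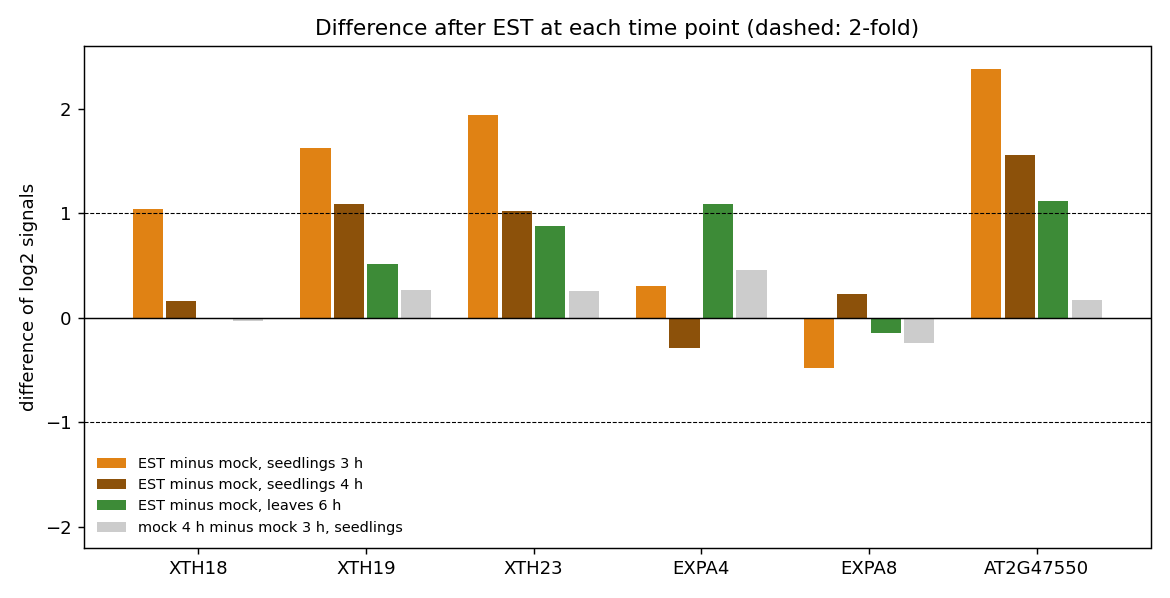
EST minus mock difference of log2 signals (y axis) of each gene (x axis) in seedlings at 3 h, seedlings at 4 h and leaves at 6 h, with the difference between the mock seedlings of 4 h and 3 h in grey and dashed lines at a 2-fold difference. Each bar is 1 array minus 1 array and has no error bar, and the bars of AT2G47550 are past the 2-fold line at all 3 time points, from 2.38 at 3 h to 1.11 at 6 h.

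To ask in which tissue the genes had the higher level, the 2 leaf arrays were compared with the 4 seedling arrays, with treatment as a covariate in limma. Leaves differed from seedlings also in age, medium, day length, detachment and hours of treatment, which cannot be told apart from tissue, and in whole organs fewer cells of a type cannot be told apart from less RNA per cell. Over all 13356 genes, 2270 (17.0%) were higher and 2107 (15.8%) lower in leaves (Benjamini-Hochberg adjusted threshold of 0.05). Nothing in the labels says that arrays of a tissue came from separate plantings, so these p-values measure the spread between these arrays. XTH19 and XTH23 met the 2-fold rule of the published list through their seedling pairs alone, and the seedling signals that met it also enter the tissue difference. The tissue levels of all 6 genes are therefore given as a description, without a p-value, and tests are given for the other genes of their families. An SE printed beside a difference comes from a limma fit, describes the spread of these arrays only, and is not used as a test.

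XTH19 was lower in leaves, with signals of 4.28 and 4.80 against 6.58 to 8.20 in seedlings. The groups did not overlap and were 1.77 apart, although EST and mock were mixed in each. The leaf minus seedling difference was −2.84 ± 0.26 (SE of the fit, n = 2 leaf and 4 seedling arrays), so that the mean seedling signal was 7.16-fold that of leaves. It was −2.42 among mock arrays alone and −3.26 among EST arrays alone.

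XTH18 moved the same way as its neighbour by less. Both its leaf signals, 7.81 and 7.82, lay below its 4 seedling signals of 8.84 to 9.91, with a gap of 1.02. The leaf minus seedling difference was −1.34, or 2.54-fold higher in seedlings, and it was −1.04 among mock arrays alone and −1.65 among EST arrays alone. The root marker PYK10 differed between leaves and seedlings by −9.95 (limma adjusted p = 0.000172), and the part of root tissue in the lower leaf signals of XTH18 and XTH19 was not tested.

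XTH23 had leaf signals of 8.52 and 9.39 within its seedling range of 8.16 to 10.10. The leaf minus seedling difference was −0.07 ± 0.29 (SE, from a fit over all 22746 probe sets, since its probe set has no gene in the array annotation). It was 0.23 among mock arrays and −0.37 among EST arrays. The 3 XTH genes therefore gave leaf minus seedling differences from −2.84 to −0.07.

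EXPA8 was higher in leaves, with signals of 5.36 and 5.51 against 3.52 to 4.01 in seedlings. Those seedling signals lay only 1.37 to 1.86 above the lowest signal of the arrays. The groups lay 1.35 apart, and the difference was 1.61, or 3.05-fold. It was nearly the same among mock arrays, 1.62, and among EST arrays, 1.60. EXPA4 had 6.78 and 7.86 in leaves against 7.80 to 8.26 in seedlings, and the ranges overlapped by way of the EST leaf array alone. Its difference was −0.71 in all, −1.25 among mock arrays and −0.17 among EST arrays.

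AT2G47550 had signals of 6.20 and 7.32 in leaves against 4.41 to 6.79 in seedlings. The ranges overlapped because the EST seedlings of 3 h lay above the mock leaves. The difference was 1.28 ± 0.32 (SE, n = 2 leaf and 4 seedling arrays). It was 1.71 among mock arrays and 0.85 among EST arrays.

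The remaining genes of the same families were taken from lists of 33 XTH, 36 expansin and 27 pectin methylesterase genes. Of the 90 that are not among the 6 genes above, 36 were measured: 8 of 30 XTH genes, 16 of 34 expansin genes and 12 of 26 pectin methylesterase genes. Of these 36, 19 lay within 1 log2 unit of the lowest signal on all arrays, among them 11 of the 16 expansins, and 17 lay above.

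After EST, 1 of the 36 was at least 2-fold higher at 3 h, none at 4 h and 1 at 6 h, and none was at least 2-fold lower at any time point. Their median differences were 0.03, 0.00 and 0.00 at 3 h, 4 h and 6 h, where the median of all genes was 0.00 each time. Both medians include genes within 1 log2 unit of the lowest signal on all arrays, 19 of the 36 and 5382 of the 13356. The medians therefore say little about the genes above that level. The 8 XTH genes lay between −0.06 and 0.50 at 3 h, between −0.04 and 0.10 at 4 h and between −0.31 and 0.35 at 6 h. The 16 expansins lay between −0.10 and 0.71 at 3 h, between −0.42 and 0.48 at 4 h and between −0.72 and 0.52 at 6 h.

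Both genes past 2-fold were pectin methylesterases. AT3G43270 had 7.52 with EST against 6.12 with mock at 3 h, 7.71 with EST against 6.95 with mock at 4 h and 7.11 with EST against 7.05 with mock in leaves, differences of 1.40, 0.76 and 0.06. Its mock signals at 4 h and 3 h alone differed by 0.83. AT3G59010 had 3.69 with EST against 3.46 with mock at 3 h, 4.23 with EST against 3.60 with mock at 4 h and 5.13 with EST against 3.69 with mock in leaves, differences of 0.23, 0.63 and 1.45. In this family the EST leaf array of AT3G59010 stood apart, as did the mock seedlings of 3 h for AT3G43270, the lowest of its 6 arrays.

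With the 3 time points taken as replicates, limma called no gene of the 13356 between EST and mock (0.0%), and the differences between leaves and seedlings stay in the residual of this fit. At the unadjusted threshold of 0.05 it held 46 genes higher and 12 lower (0.434% of all genes), and none of the 36 family genes. With the time point as a block, 385 genes higher and 228 lower passed that unadjusted threshold (4.59%), of the 36 only AT5G53370, and none passed after adjustment. The 5 annotated genes of the 6 were in both fits, but their outcome is not read and their p-values are not given, since they were chosen with this contrast known.

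**Figure D3:**
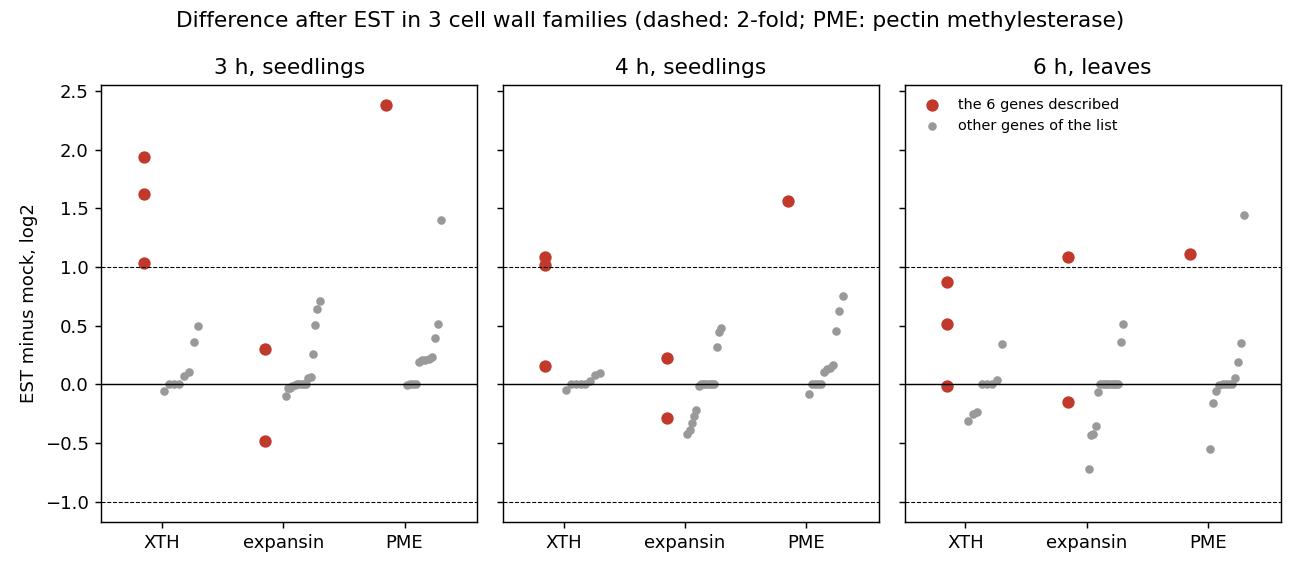
EST minus mock difference of log2 signals (y axis) of the 6 genes (large points) and the 36 other measured genes (small points, sorted by value) of the XTH, expansin and pectin methylesterase lists (x axis), with 1 panel for each time point and dashed lines at a 2-fold difference. Outside the 6 genes, 1 gene lay above the upper line at 3 h and 1 at 6 h, and none lay below the lower line.

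Between leaves and seedlings, 3 of the 36 other family genes were higher and 7 lower in leaves by limma, and 26 were not called, beside 17.0% higher and 15.8% lower over all genes. XTH16 was lower, with 6.58 and 6.92 in leaves against 9.34 to 9.44 in seedlings (difference −2.65, limma adjusted p = 0.00117), as was XTH32, with 6.91 and 7.14 in leaves against 8.83 to 9.02 in seedlings (difference −1.89, limma adjusted p = 0.00241). Both therefore lay on the same side as XTH18 and XTH19. XTH27, also known as EXGT-A3 and known from vein development in leaves, was higher, with 11.45 and 11.70 in leaves against 10.52 to 10.77 in seedlings (difference 0.92, limma adjusted p = 0.0134).

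The α-expansin gene EXPA15 had 3.95 and 3.94 in leaves against 6.94 to 7.24 in seedlings (difference −3.08, limma adjusted p = 0.00134). The β-expansin gene EXPB3 had 4.49 and 3.97 in leaves against 6.75 to 7.55 in seedlings (difference −3.03, limma adjusted p = 0.00684). EXLA3, an expansin-like gene, was called lower by a difference of −0.10 close to the lowest signal (limma adjusted p = 0.0392). None of the 16 other expansins was called higher in leaves. EXLA1, another expansin-like gene, had 9.07 and 9.50 in leaves against 8.06 to 8.55 in seedlings (difference 0.93, limma adjusted p = 0.0603). EXLB1 had 7.02 and 7.45 in leaves against 6.40 to 6.91 in seedlings (difference 0.57, limma adjusted p = 0.226). Both had their leaf arrays above all seedling arrays, as EXPA8 did, and both were chosen for mention after their values were seen.

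Of the pectin methylesterase genes, AT5G53370 (difference 1.05, limma adjusted p = 0.000306) and AT3G10720 (difference 1.22, limma adjusted p = 0.0193) were higher in leaves. AT5G64640 (difference −1.71, limma adjusted p = 0.0103) and AT5G09760 (difference −0.90, limma adjusted p = 0.0152) were lower. With each array left out in turn, XTH16, XTH32, EXPA15 and AT5G53370 were called in all 6 fits. The call of EXPB3 was lost in 1 fit (without the mock leaves), that of AT5G64640 in 2 (without either leaf array), those of XTH27, AT3G10720 and AT5G09760 in 4 each and that of EXLA3 in 5. CSLC4, which makes the glucan backbone of xyloglucan, was the only gene measured of 17 in a list for cellulose and xyloglucan synthesis. It was higher in leaves (difference 0.89, limma adjusted p = 0.00536), and its differences after EST were 0.31, 0.35 and 0.07 at 3 h, 4 h and 6 h.

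**Figure D4:**
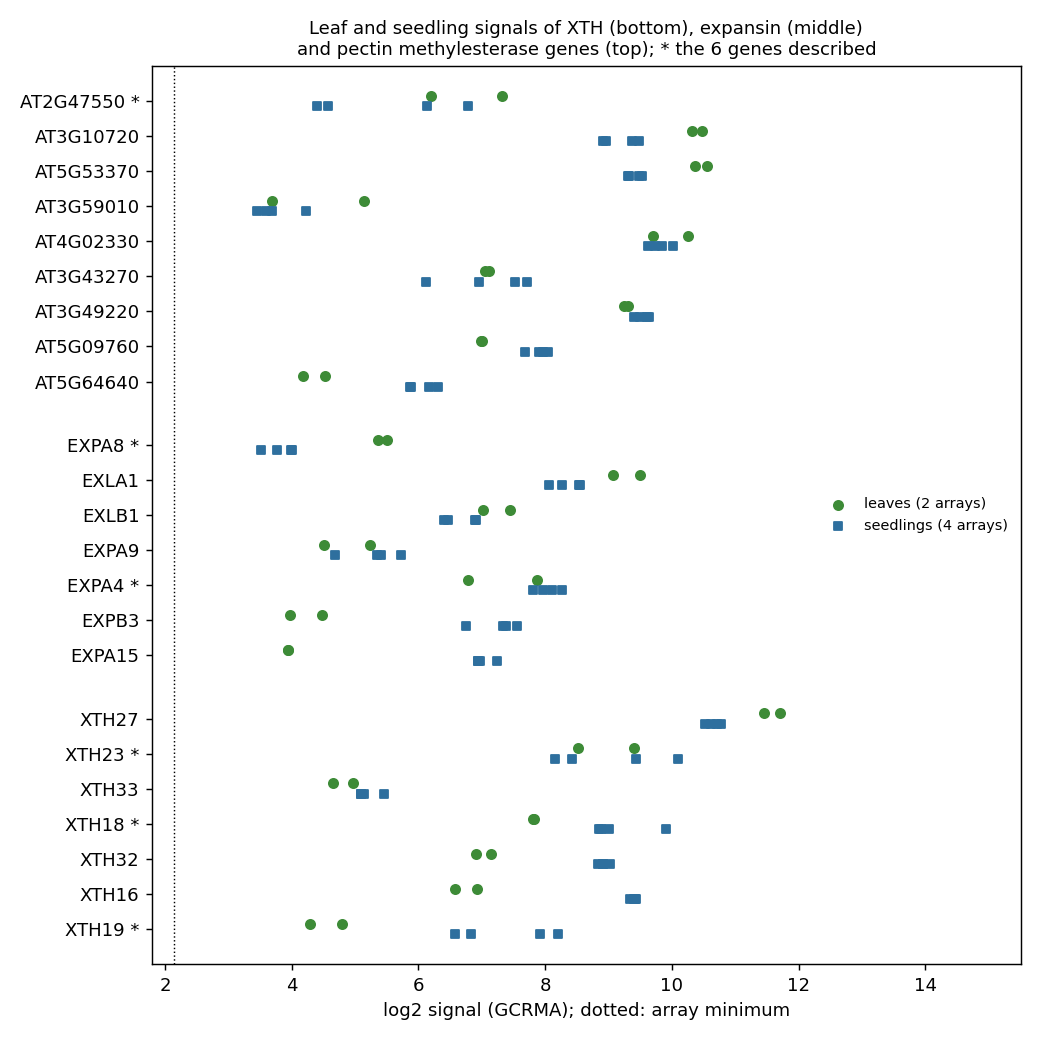
Log2 signals (x axis, GCRMA) on the 2 leaf arrays (circles) and the 4 seedling arrays (squares) of the 6 genes (asterisks) and of the 17 other family genes that lay more than 1 log2 unit above the lowest signal (dotted line) on at least 1 array. Both leaf points lie to the right of all seedling points for EXPA8, XTH27, EXLA1, EXLB1, AT3G10720 and AT5G53370, and to the left for XTH18, XTH19, XTH16, XTH32, XTH33, EXPA15, EXPB3, AT3G49220, AT5G09760 and AT5G64640. The share of all genes whose leaf and seedling arrays do not overlap was not counted, so nothing is read from how many are listed.

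XTH18 and XTH19 lie beside each other on chromosome 4 in the TAIR10.1 annotation, with XTH24, not measured here, next to XTH18, and XTH23 lies on the same chromosome beside XTH14, also not measured here. EXPA4, EXPA8 and AT2G47550 are on chromosome 2. Within 2 places of any of the 6, 14 genes were measured, XTH18 and XTH19 among them. Apart from XTH18 and XTH19 themselves, none of the 14 differed by 2-fold after EST at any time point. Nothing is read from this, since only 0.18% to 1.14% of all genes passed 2-fold in a given direction at a time point. The genes on both sides of AT2G47550 had differences of 0.00 in seedlings, and their leaf minus seedling differences were only 0.0025 and 0.0018. Genes at the lowest signal also give values this close to 0, and the signals of these genes were not checked. Apart from XTH18 and XTH19, the largest differences after EST among the measured neighbours of the 6 genes were −0.71 for AT4G25800 beside XTH23 at 6 h and 0.67 for AT2G40620 beside EXPA8 at 3 h. In tissue, AT2G40600, the gene on the other side of EXPA8, was higher in leaves by a difference of 1.94, and AT2G39670, near EXPA4, was lower by a difference of −2.30, both given as values without a test.

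The genes most like each of the 6 were looked for by Pearson's r over the 6 arrays among 4531 genes whose signal spanned at least 1 log2 unit (4532 for XTH23). The arrays share the division into leaves and seedlings and the same normalization, so high values are common, and r is given as a description. For AT2G47550 these were AT1G63840 (r = 0.997) and AT1G74010 (r = 0.984), whose EST minus mock differences were 1.83, 1.35 and 0.82 for the first and 2.38, 2.29 and 1.43 for the second at 3 h, 4 h and 6 h. For XTH23 they were AT5G67350 (r = 0.960) and AT1G33110 (r = 0.929), which were higher after EST by 1.29 and 1.11 at 3 h.

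For XTH19 the closest patterns were those of AT4G19380 (r = 0.995) and AT5G18430 (r = 0.994), with leaf minus seedling differences of −1.46 and −1.53. For XTH18 they were those of CP1, AT4G36880, a cysteine proteinase gene (r = 0.998), and AT1G49870 (r = 0.986), with differences after EST of 0.78 and 0.64 at 3 h and of 0.10 and 0.18 at 4 h. For EXPA4 they were those of AT1G25510 (r = 0.977) and AT5G11020 (r = 0.974), which were higher after EST in leaves by 0.94 and 1.05. For EXPA8 they were those of AT1G65000 (r = 0.998) and AT4G32760 (r = 0.997), with leaf minus seedling differences of 1.39 and 1.03.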

How the data were processed

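The authors hybridised biotin-labelled RNA to ATH1 arrays and deposited log2 signals for 22810 probe sets, normalized with GCRMA (version not given in the sources used here). These were used as deposited. Of 22746 probe sets other than controls, 13513 had exactly 1 gene in the array annotation, and 13436 of them matched TAIR10.1 (77 did not). Probe sets with several genes (503) or none listed (8730) were left out, leaving 13356 genes after the brightest probe set, by its mean over the arrays, was chosen for each of the 146 genes that had several. XTH23 was found as the probe set whose 3 differences equal its published fold changes within 2e-05, and is therefore not among the 13356.

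EST minus mock was taken at each time point without a test. Fits were made with limma 3.58.1 (R 4.3.3): leaves against seedlings with treatment as covariate (3 residual degrees of freedom), and EST against mock with the 3 time points as replicates (4, or 2 with the time point as a block). P-values were adjusted over all genes by the Benjamini-Hochberg method. P-values are given for genes of the family lists and markers only. They had been planned for XTH19, XTH23 and AT2G47550 in tissue too, and were left out because the published selection used the seedling arrays. The tissue fit and the EST fit without a block were tried on simulated data. The data simulated for the EST fit held no difference between leaves and seedlings, so they do not show what that fit could find here.

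The 6 genes and the lists were chosen with earlier results of these data known. Named were the 6 genes, list genes at least 2-fold different after EST at any time point or with the 3 largest called tissue differences in each direction, and the 2 genes most like each of the 6. Gene symbols of pectin methylesterases are given as locus identifiers. Protein identity and promoter motifs, which had been planned, were not analysed here, and no sequences or coordinates are given.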

Additional observations from a re-analysis of the deposited data

Results flagged for a closer look

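Of 18 results searched (the 6 genes and 12 named family genes), 4 had differences after EST that ran one way on both seedling pairs and the other way on the leaf pair; the leaf difference minus the mean seedling difference is given, and this difference was not tested. It was −0.61 for XTH18, whose leaf difference of −0.01 is close to 0. For EXPA15 it was 0.14, with differences of −0.00 at 3 h and 0.00 in leaves that are also close to 0, for XTH32 −0.33 and for AT3G10720 −0.65. The share of all genes with such a pattern was not counted, so nothing is read from the count of 4 among 18. No condition holds more than 1 array, so no array could be compared with others of its group.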

How the results depend on the processing

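Of 60 alternative values of the EST minus mock differences, 54 moved by less than the spread of 0.249 between mock arrays over all genes. The other 6, all with the mock arrays exchanged, moved by more. Centring moved all genes of a pair equally, and exchanging or averaging the mock arrays moved a gene by the difference between those arrays or less. The count of 54 therefore does not show how well the differences would repeat. Of the counts of genes at least 2-fold higher, the 4 h and 6 h counts were 0 and 0 at a 3-fold threshold, and the other 17 of 19 alternatives stayed within 1.5 times. With quantile normalization or with each array centred on its median, the counts were 3 at 3 h, without XTH18, and 2 at 4 h, without XTH23. Genes higher and lower in leaves numbered 4318 and 4151 over all probe sets, and 888 and 651 on the mock arrays alone, a fit with fewer arrays. Without each array in turn they numbered 1457 to 1810 and 1373 to 1635. Among genes with a signal of at least 6, 5 of the other family genes were called higher in leaves and 6 lower. In that fit 2350 of all 6058 genes were called higher and 2128 lower, so nothing is read from the family counts. Without each array in turn the family counts were 1 to 3 higher (1 without the EST seedlings of 4 h or the mock seedlings of 3 h) and 3 to 7 lower (4 without the EST leaves and 3 without the mock leaves). Between EST and mock, leaving out each time point gave 0 to 2 genes higher and 0 to 1 lower, the 2 and 1 arising without the leaf arrays, and the time point as a replicate block gave 0. Of 49 alternatives for leaf minus seedling differences of the 5 annotated genes, none changed sign. Without each array in turn, the differences ranged from −3.26 to −2.42 for XTH19 and from 0.85 to 1.71 for AT2G47550. They ranged from −1.65 to −1.04 for XTH18, from −1.25 to −0.17 for EXPA4 and from 1.51 to 1.71 for EXPA8. For XTH18 and EXPA4, leaving out the EST or the mock leaf array gave −1.04 or −1.65 and −1.25 or −0.17. With treatment as a covariate, leaving out 1 leaf array gives the difference among mock or among EST arrays alone, already stated for each gene. These values are therefore not a separate check. The tissue alternatives were not run for XTH23, which is not among the annotated genes. Signals near 2.15 bound what a decrease can show, and with 1 array in each condition no difference after EST has a replicate check.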
